A study of Mus musculus with 9 samples.

Results

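The Dlk1-Dio3 imprinted cluster of the mouse is a run of miRNA genes on the distal part of 1 chromosome, and its miRNAs were followed here in lung. A list of 47 mature miRNAs of this cluster was matched by name to the entries of the array. Of these, 46 were on the array, among 1881 mouse miRNAs in all, and mmu-miR-299a-5p had no entry under that name. Lung RNA was read on single-colour Agilent miRNA arrays, with 1 array for each of 9 mice. The codonopsis group (3 mice, 2 male and 1 female) is labelled with Codonopsis pilosula, a plant of traditional Chinese medicine, at 15 g per kg and 30 days. Whether these mice also had the agents of the model is not in their labels, while the treatment protocol describes the plant as an intervention in ageing mice. The model group (3 female mice) is labelled with D-galactose and sodium nitrite, agents used to imitate ageing, and 42 days. The control group (1 male and 2 female mice) carries no treatment label. Strain, age and genotype are not given in the sources used here for any group.

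The cluster lies between the paternally expressed protein-coding genes Dlk1 and Dio3, with Rtl1 between them, and its long non-coding RNAs Meg3, Rian and Mirg are expressed from the maternal chromosome together with the miRNAs. A methylated control region between Dlk1 and Meg3 sets which parental copy is used. The miRNAs are known for high levels in the embryo, the placenta and the brain, and some of them lie antisense to Rtl1 and direct cleavage of its transcript. In human lung fibrosis, miRNAs of the corresponding region, miR-154 among them, have been reported to be raised.

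RefSeq (assembly GRCm38.p6) places 44 of the 47 miRNAs, all on the plus strand of chromosome 12, within chr12:109572004-109743784. They form a proximal block of 14 miRNAs at chr12:109572004-109618326, around Rtl1, and a distal block of 30 at chr12:109709065-109743784, and the starts of the miRNAs on either side of the gap are 90760 bases apart. The mature sequences of the detected members show how different these miRNAs of 1 locus are from each other. The seed, bases 2 to 8, which pairs with target transcripts, is in capitals. In the proximal block the detected members were:
mmu-miR-337-3p: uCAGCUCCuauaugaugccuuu
mmu-miR-127-3p: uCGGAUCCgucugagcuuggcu
mmu-miR-434-3p: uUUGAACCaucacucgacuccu
mmu-miR-136-5p: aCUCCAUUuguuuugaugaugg
In the distal block, in order along the chromosome, they were:
mmu-miR-379-5p: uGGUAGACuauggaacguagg
mmu-miR-411-5p: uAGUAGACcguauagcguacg
mmu-miR-329-3p: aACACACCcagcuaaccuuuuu
mmu-miR-494-3p: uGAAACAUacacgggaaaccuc
mmu-miR-376b-3p: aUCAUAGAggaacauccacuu
mmu-miR-376a-3p: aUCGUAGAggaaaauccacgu
mmu-miR-300-3p: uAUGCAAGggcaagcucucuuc
mmu-miR-539-5p: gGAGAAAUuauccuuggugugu
mmu-miR-485-3p: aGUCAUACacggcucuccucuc
mmu-miR-154-5p: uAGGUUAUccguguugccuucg
mmu-miR-377-3p: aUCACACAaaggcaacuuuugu
The remaining detected member is miR-376c-3p. No pair of the placed members shares a seed. In RefSeq the seeds of miR-329-3p, miR-379-5p and miR-411-5p each belong to 2 mature miRNAs, so these have a seed partner outside the placed members. The closest relatives shown, miR-376a-3p and miR-376b-3p, differ at 3 of 21 bases, and 1 of these lies in the seed.

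Most of the listed members were not detected in lung. A miRNA counts as detected where the scanner software set its detection flag. On this rule 16 of the 46 members (34.8%) were detected on at least 1 array, and 30 (65.2%), called silent below, on none. The processed signal of a silent member reached 7.56 at most, on control 1. On codonopsis 2 the silent miR-382-5p had a signal of 6.17, while miR-377-3p counted as detected at 5.49. Silent therefore means without a flag, and not without signal. Among the other 1835 miRNAs of the array, 634 (34.55%) were detected on at least 1 array. Steady detection was rarer: 3 members (6.52%) were detected on all 9 arrays, against 286 of the others (15.6%). The members detected per array numbered 10, 11 and 11 for codonopsis, 11, 8 and 11 for model, and 9, 11 and 9 for control, so the groups did not separate. Under a stricter rule, with the median spot of a miRNA well above background on at least 1 array, 6 members remained, namely miR-127-3p, miR-376a-3p, miR-376b-3p, miR-376c-3p, miR-485-3p and miR-494-3p.

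The silent members included miR-134-5p, a regulator of dendritic spines in neurons, and miR-409-3p, miR-410-3p, miR-495-3p, miR-381-3p, miR-382-5p, miR-370-3p, miR-431-5p and miR-433-3p. The others on this side were miR-127-5p, miR-136-3p, miR-154-3p, miR-323-3p, miR-337-5p, miR-341-3p, miR-369-3p, miR-369-5p, miR-380-3p, miR-382-3p, miR-409-5p, miR-411-3p, miR-434-5p, miR-485-5p, miR-487b-3p, miR-541-5p, miR-543-3p, miR-665-3p, miR-667-3p, miR-673-5p and miR-758-3p. Both blocks held detected members, 4 of 14 on the array in the proximal block and 11 of 29 in the distal block. Among the members with a RefSeq position, 34 hairpins had a member on the array and 9 had both arms there, and none of these 9 had both arms detected. miR-127, miR-136, miR-154, miR-337, miR-411 and miR-434 were each detected from 1 arm, and miR-369, miR-382 and miR-409 from neither. Of the arms of miR-485, the 3p arm alone was detected. The detected members were 5 of the 5p arm and 11 of the 3p arm, and the silent ones 11 of the 5p arm and 19 of the 3p arm. Their base composition overlapped widely, with a median GC content of 45.5% (36.4% to 59.1%) in the detected and 48.9% (23.8% to 68.2%) in the silent members, and a median length of 22 bases in both.

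**Figure D1:**
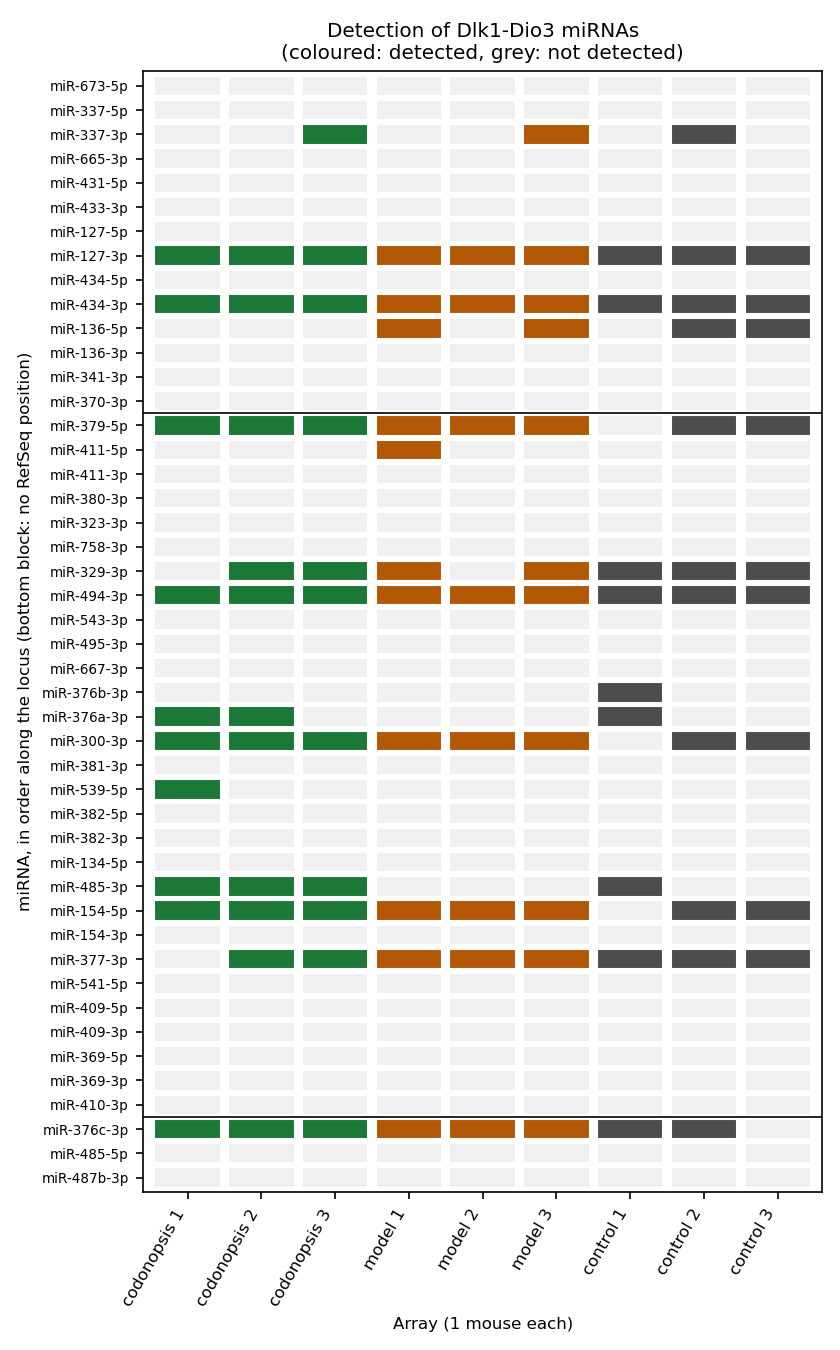
Detection of each of the 46 members (rows, in order along the locus, with the 3 that have no RefSeq position at the bottom) on each array (columns); a coloured cell is a detected miRNA and a grey cell is not detected. The upper line separates the proximal from the distal block, and 30 rows are grey throughout.

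Arrays differed in ways that touch these members. Between 375 and 484 miRNAs were detected per array, and the 75th percentile of signal used for scaling lay between 244.53 on control 1 and 538.24 on control 2. A low percentile raises every scaled level of its array. The median correlation of an array with the others was 0.886 for control 1 and 0.951 to 0.978 for the other 8. The control arrays lay on 1 slide and the codonopsis and model arrays on another, so slide and control group cannot be told apart. Codonopsis 1, codonopsis 2 and control 1 came from the male mice, and no model array did. As a check of the tissue, both endothelial markers and all 6 markers of lung epithelium were detected on all 9 arrays, while the neuronal markers miR-124-3p, miR-9-5p and miR-9-3p were detected on none. The remaining marker of the neuronal list was detected on all arrays, and the summed scaled level of the list on the log2 scale was −4.20 to −3.76 in codonopsis, −4.0 to −3.51 in model and −5.02 to −3.99 in control lungs. The summed level of 8 markers of smooth muscle and fibroblasts was 2.98 to 3.13 in codonopsis, 3.2 to 3.37 in model and 3.08 to 3.52 in control lungs, so that codonopsis lay below model without overlap. The 6 markers of lung epithelium did the same, with 3.09 to 3.24 in codonopsis, 3.25 to 3.53 in model and 2.98 to 3.36 in control lungs. Their gap was narrow, from 3.238 in codonopsis to 3.245 in model. Among the 404 miRNAs tested below, 22.3% had every codonopsis array below every model array. Leukocyte, multiciliated and erythroid markers were all detected on all 9 arrays. The summed level of leukocytes was 1.43 to 2.08 in codonopsis, 1.45 to 2.11 in model and 1.32 to 3.34 in control lungs. Of 6 markers of heart and striated muscle, 2 were detected on all 9 arrays and all on at least 1. Their summed level was −1.26 to 2.62 in codonopsis, 0.99 to 1.88 in model and 0.91 to 1.47 in control lungs. The liver marker miR-122-5p was detected on 3 arrays. The part of any marker list in the results below was not tested. In whole lung, fewer cells of a type and less of a miRNA per cell cannot be told apart.

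Levels below are log2 of the background-corrected signal divided by the 75th percentile of the same array, taken over the 289 miRNAs detected on all 9 arrays. A level of 0 is the signal of that percentile, and the lowest level allowed is −8. The level of 1 miRNA is compared between arrays only, since probes differ in brightness. Tests covered the 404 miRNAs that the 3 arrays of some group had all detected, 10 of them members. Differences come with the standard error (SE) and the adjusted p of limma over these 404.

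The 3 members detected on all 9 arrays were miR-494-3p, miR-127-3p and miR-434-3p. miR-494-3p, of the distal block, had levels of 0.30, 0.03 and 0.81 on the codonopsis arrays, −0.03, 0.03 and 0.03 on the model arrays and 0.31, 0.00 and 0.33 on the control arrays. The model arrays were nearly equal (SD 0.036), the codonopsis arrays spread most (SD 0.399), and the groups overlapped. Codonopsis minus model was 0.37 (SE 0.21, adjusted p = 0.488) and model minus control was −0.20 (SE 0.21, adjusted p = 0.658).

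miR-127-3p, which directs cleavage of the Rtl1 transcript, had levels of −5.17, −4.54 and −4.59 in codonopsis, −4.93, −4.81 and −4.62 in model and −4.23, −4.64 and −4.73 in control lungs. The lowest value was that of codonopsis 1 and the highest that of control 1, where the processed signal (13.1) was the lowest of the 9, and the groups overlapped. Codonopsis minus model was 0.02 (SE 0.22, adjusted p = 0.95), and model minus control was −0.25 (SE 0.22, adjusted p = 0.606).

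miR-434-3p, from the neighbouring hairpin that is also antisense to Rtl1, had levels of −6.02, −5.52 and −5.64 in codonopsis, −5.64, −5.82 and −5.55 in model and −3.92, −5.76 and −5.51 in control lungs. Control 1 stood far above the other 8 arrays, which overlapped between groups. Its processed signal of 16.1 on control 1 was also the highest, against 7.44 to 9.95 on the other arrays. Model minus control was −0.60 (SE 0.44, adjusted p = 0.563).

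The next members were detected on 7 or 8 arrays, and their signals were close to background. miR-154-5p, the miRNA whose human counterpart was reported in fibrotic lung, had levels of −5.99, −5.43 and −5.64 in codonopsis, −5.62, −5.39 and −5.52 in model and −5.09, −5.61 and −5.59 in control lungs. Its spread within groups was small (SD 0.245), and codonopsis minus model was −0.18 (SE 0.20, adjusted p = 0.663). miR-379-5p, the first hairpin of the distal block, had levels of −6.40, −5.59 and −5.95 in codonopsis, −5.40, −5.78 and −5.72 in model and −5.55, −5.97 and −5.89 in control lungs. The groups of both miRNAs overlapped, and control 1 was the 1 array that detected neither. There miR-154-5p had the highest scaled level but the lowest processed signal (7.16).

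miR-300-3p lay between −6.44 and −5.86 in codonopsis, −6.11 and −5.89 in model and −6.14 and −5.69 in control lungs, again without detection on control 1. miR-329-3p, one of the miRNAs of the distal block studied in neuronal dendrites, had levels of −6.38, −6.09 and −5.99 in codonopsis, −6.14, −6.27 and −5.72 in model and −4.08, −6.07 and −6.11 in control lungs. As for miR-434-3p, control 1 stood apart from the other 8 arrays, with a processed signal of 14.5.

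miR-377-3p, reported to raise fibronectin in kidney mesangial cells of human and mouse, had levels of −6.64, −6.32 and −6.33 in codonopsis, −6.06, −6.05 and −5.82 in model and −5.43, −6.48 and −6.23 in control lungs. Every codonopsis array lay below every model array, and the control arrays overlapped both groups, control 1 with a processed signal of 5.66. Its brighter probe did not separate codonopsis from model, with mean signals of 8.48, 10.2 and 9.92 against 9.57, 11.4 and 12.2. The dimmer probe did, at 0.04 to 1.21 against 1.29 to 2.78, with single spots down to −3.70. Codonopsis minus model was −0.45 (SE 0.27, adjusted p = 0.488), which did not pass the test. Of the 404 tested miRNAs, 22.3% also had every codonopsis array below every model array, and the median difference of all 404 was −0.11.

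**Figure D2:**
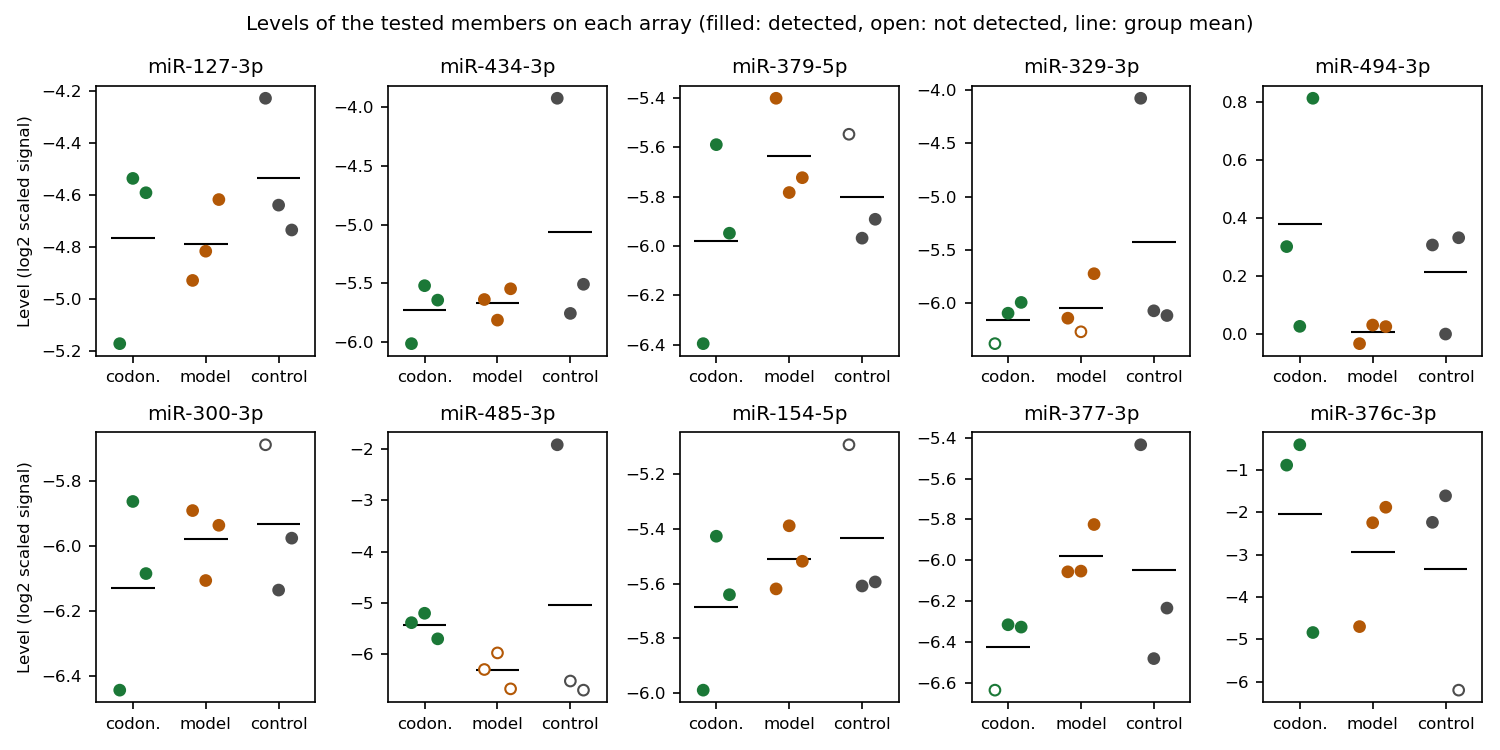
Level (log2 scaled signal, vertical axis, with its own range in each panel) of the 10 tested members on each array, by group; filled points are detected, open points not detected, and lines are group means of 3 arrays. The first control point, control 1, is far above the others for miR-434-3p, miR-329-3p and miR-485-3p, and miR-376c-3p spreads widely in every group.

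miR-485-3p was the member whose detection followed a group most closely. It was detected on all 3 codonopsis arrays, on no model array and on control 1 alone, so that it passed the filter through the codonopsis group. Its levels were −5.38, −5.20 and −5.70 in codonopsis, −6.29, −5.97 and −6.67 in model and −1.92, −6.52 and −6.70 in control lungs. The corresponding processed signals were 11.6, 11.9 and 7.71 in codonopsis, 5.24, 6.73 and 3.87 in model and 64.7, 5.88 and 4.19 in control lungs. Every codonopsis array lay above every model array, while the control arrays spanned both groups because of control 1. Of the 404 tested miRNAs, 14.9% had every codonopsis array above every model array.

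Over all 9 arrays codonopsis minus model of miR-485-3p was 0.89 (SE 1.15, adjusted p = 0.683), a fitted 1.85-fold that is no bound since its signal on each model array exceeded the lowest signal detected there, and codonopsis minus control was −0.38 (SE 1.15, adjusted p = 0.914). Control 1 set the SE of both and the value of codonopsis minus control. Without that array codonopsis minus model was 0.89 (SE 0.21, adjusted p = 0.0493) and codonopsis minus control was 1.18 (SE 0.24, adjusted p = 0.0270), and both passed the threshold of 0.05. miR-485-3p was among the tested miRNAs only because all codonopsis arrays detected it, and this filter favours a higher codonopsis value, so these passes are given as a description. Without control 1, 8.66% of the 404 miRNAs passed in codonopsis minus model and 11.4% in codonopsis minus control, with miR-485-3p the 1 member in each. On the slide of the codonopsis and model arrays alone, where 4.21% of the 404 passed, the difference was 0.89 (SE 0.22, adjusted p = 0.0777) and did not pass. The male arrays had the 3 highest processed signals of miR-485-3p, and with sex as a covariate codonopsis minus model turned to −0.81. The male term of that fit includes control 1, at −1.92 against −6.52 and −6.70 in the female controls. Within codonopsis the male arrays (−5.38 and −5.20) lay much closer to the female array (−5.70). Sex and the departure of control 1 from the other arrays cannot be told apart in that fit. Among the female mice, codonopsis 3 (−5.70) lay above the model arrays (−6.29, −5.97 and −6.67) and above control 2 and control 3 (−6.52 and −6.70), with 1 mouse on the codonopsis side.

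miR-376c-3p varied more between arrays of a group, each of 1 mouse, than any other tested member. The pri-miR-376 transcripts of this subgroup are known for A-to-I editing, which can change the seed. Its levels were −0.89, −0.41 and −4.84 in codonopsis, −4.70, −2.25 and −1.88 in model and −2.24, −1.61 and −6.20 in control lungs. Each group held arrays with high and arrays with low signal, so that the groups overlapped throughout. On the linear scale its processed signal was 260, 330 and 13.97 in codonopsis, 15.8, 88.9 and 107 in model and 51.9, 176 and 5.91 in control lungs. Its SD within groups was 2.19, against a median of 0.299 over the 404 tested miRNAs. Codonopsis minus model was 0.90 (SE 1.59, adjusted p = 0.766), codonopsis minus control was 1.31 (SE 1.59, adjusted p = 0.788) and model minus control was 0.41 (SE 1.59, adjusted p = 0.956).

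The spread of miR-376c-3p was not that of single spots. Its 4 probes gave mean signals of 303 to 356 on codonopsis 2 and of 2.96 to 7.76 on control 3, and the single spots ranged from 286 to 400 on codonopsis 2 and from 2.16 to 11.3 on control 3. All 4 probes therefore placed these arrays in the same order. No other tested member followed it, with a highest Pearson r of 0.27 over the 9 arrays. Among the other 403 tested miRNAs, 5 had an r above 0.95 with it, and all lie outside the list of members. They were chosen after their values were seen, and r is a description over 9 arrays of 3 groups. miR-7212-3p had the closest pattern (r = 0.990, Spearman's rho = 0.967), and r was 0.992 without the 2 arrays farthest from the median of miR-376c-3p. miR-3063-3p (r = 0.984), miR-6339 (r = 0.966), miR-7661-3p (r = 0.963) and miR-302c-3p (r = 0.961) followed, and the next miRNA had an r of 0.874. By SD within groups, these 5 ranked 1, 6, 4, 5 and 3 among the 404, against 8 for miR-376c-3p.

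**Figure D3:**
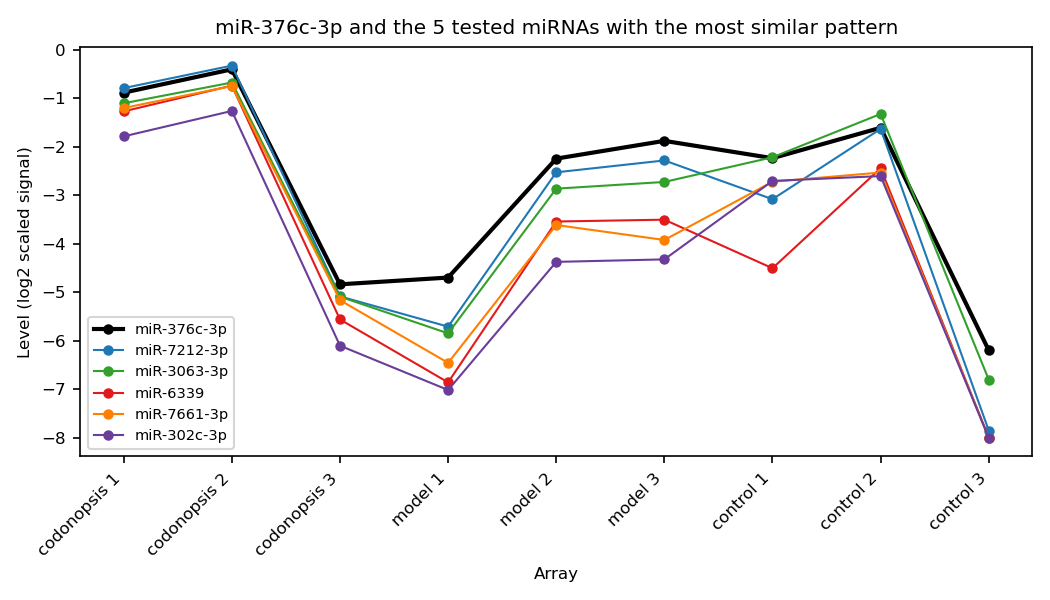
Level (log2 scaled signal, vertical axis) of miR-376c-3p (thick black line) and of the 5 tested miRNAs most like it on the 9 arrays (horizontal axis). All 6 are high on codonopsis 1 and codonopsis 2, low on codonopsis 3 and model 1, and lowest on control 3.

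The sister miRNAs of the same subgroup did not share that pattern. miR-376a-3p was detected on codonopsis 1, codonopsis 2 and control 1, which are the 3 arrays from male mice, and did not enter the test. Its levels were −5.42, −4.60 and −6.52 in codonopsis, −6.21, −7.16 and −6.20 in model and −3.12, −6.95 and −6.68 in control lungs. The 3 male arrays had the highest values, and the female arrays of the 3 groups overlapped. These 3 arrays also detected the most miRNAs in all, 468 on codonopsis 1, 450 on codonopsis 2 and 484 on control 1. Sex and this trait of the arrays cannot be told apart, and neither was tested for miR-376a-3p. miR-376b-3p was detected on control 1 alone, where its level was −2.70. On the other 8 arrays it lay between −8 and −7.12, at or near the lowest level allowed. Both of its probes had signals of at least 33.3 on control 1 and of at most 4.75 on every other array.

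**Figure D4:**
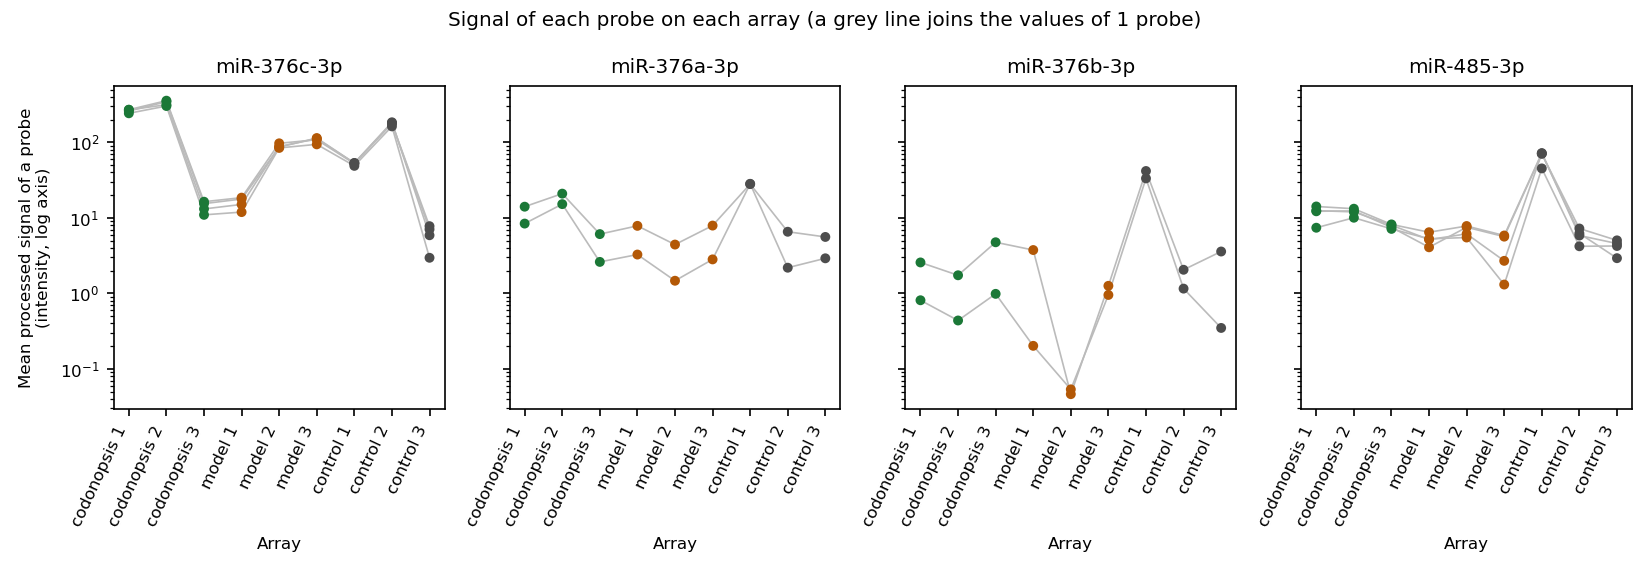
Mean processed signal (intensity, log axis) of each probe of miR-376c-3p, miR-376a-3p, miR-376b-3p and miR-485-3p on the 9 arrays (horizontal axis); a grey line joins the values of 1 probe. The probes of miR-376c-3p move together over the arrays, and miR-376a-3p, miR-376b-3p and miR-485-3p are highest on control 1.

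The other members without a test were seen on few arrays. miR-136-5p, another miRNA antisense to Rtl1, was detected on model 1, model 3, control 2 and control 3 and on no codonopsis array. Its levels were −7.21, −6.95 and −6.69 in codonopsis, −6.23, −6.47 and −6.39 in model and −5.68, −5.97 and −6.27 in control lungs, and every codonopsis array lay below the other 6, also in processed signal. Among the tested miRNAs, 22.3% had codonopsis below model without overlap and 6.93% codonopsis below control. miR-337-3p was detected on codonopsis 3, model 3 and control 2, with levels from −6.73 to −6.16 in codonopsis, −6.35 to −6.28 in model and −6.11 to −5.96 in control lungs. Its scaled control levels lay above the other 6, but the processed signals overlapped, and that of control 1 (3.93, not detected) was the lowest of the 9. Of the tested miRNAs, 8.91% had model below control without overlap and 6.93% codonopsis below control. miR-411-5p was detected on model 1 alone, with levels from −6.87 to −6.41 in codonopsis, −6.44 to −6.05 in model and −6.81 to −6.59 in control lungs. miR-539-5p was detected on codonopsis 1 alone, with levels from −6.26 to −5.81 in codonopsis, −6.75 to −6.60 in model and −7.06 to −6.29 in control lungs. Its codonopsis arrays lay above the other 6, also in processed signal, where 14.9% of the tested miRNAs had codonopsis above model and 5.69% above control. For miR-411-5p the model levels lay above the control levels, as in 14.4% of the tested miRNAs, but the processed signals overlapped. The shares given here are over the 404 tested miRNAs, which do not include these members. The levels of these members are mostly of signals that were not detected, and no fold is drawn from them. With no filter, over all 1881 miRNAs and the 46 members, the smallest adjusted p of a member in limma was 0.957 in codonopsis minus model, 0.252 in codonopsis minus control and 0.368 in model minus control.

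Over all 9 arrays, no member passed the test in any of the 3 comparisons. In model minus control, which sets D-galactose and sodium nitrite against no named treatment, 0 of the 10 tested members passed, and 0.0% of the 404 miRNAs did in limma's test. At an unadjusted p under 0.05 these were 0 members and 11.6% of the miRNAs. No tested member had model arrays all above or all below the control arrays, against 14.4% of the 404 above and 8.91% below. The median difference of the 10 members was −0.14, with 3 higher and 7 lower, and that of all 404 was 0.04.

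In codonopsis minus model, the comparison of the plant with the model, 0 members passed and 0.0% of the 404 did. At an unadjusted p under 0.05 there were 0 members and 10.6% of the miRNAs. The members without overlap were miR-485-3p and miR-377-3p, as given above, 1 in each direction. The median of the members was −0.09, with 4 higher and 6 lower, and that of all 404 was −0.11.

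In codonopsis minus control, 0 members passed, and 0.99% of the 404 did. At an unadjusted p under 0.05 there were 0 members and 14.4% of the miRNAs. No tested member had codonopsis arrays all above or all below the control arrays, against 5.69% of the 404 above and 6.93% below. The median of the members was −0.24, with 2 higher and 8 lower, and that of all 404 was −0.03. The 3 comparisons share arrays, so their values are not independent of each other.

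The signs of the small differences depended on the scaling. With the percentile taken over all miRNAs of the array, the median of the 404 shifted to 0.62 in model minus control, −0.47 in codonopsis minus model and 0.18 in codonopsis minus control, and that of the members to 0.43, −0.45 and −0.03. With quantile normalization the median of all was 0.36, −0.16 and 0.19 in the same comparisons, and that of the members 0.44, −0.41 and 0.06. The number of members that passed stayed at 0 with either scaling. On each array 375 to 484 of the 1881 miRNAs were detected, so the percentile over all miRNAs lies near the limit of detection.

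**Figure D5:**
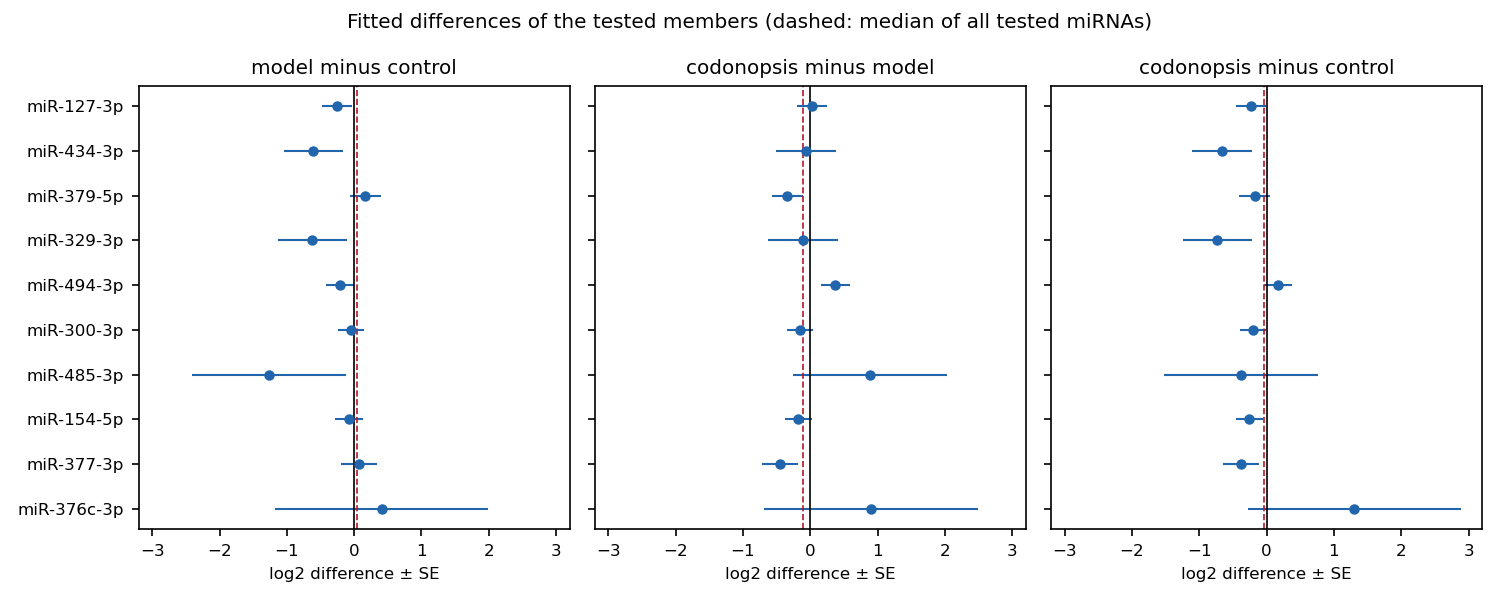
Fitted log2 difference of each tested member in the 3 comparisons (horizontal axis), with bars of 1 SE; the dashed line is the median of the 404 tested miRNAs. The widest bars belong to miR-376c-3p and miR-485-3p, and no member passed the test in any panel.

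Beyond the listed members, a second list of 68 names of other arms and other miRNAs of the locus was matched, and 63 were on the array. Of these, 4 (6.35%) were detected on at least 1 array, against 34.6% of all 1881 miRNAs of the array and 34.8% of the members. The share detected at this locus therefore depended on which of its miRNAs and arms were listed. miR-3072-5p was detected on all 9 arrays, with levels of −3.73, −3.51 and −4.42 in codonopsis, −3.92, −3.95 and −4.07 in model and −3.66, −3.80 and −4.11 in control lungs. miR-299b-5p was detected on 1 codonopsis, 3 model and 3 control arrays, and its level was highest on control 1 (−4.34). Neither passed the test in any comparison, with adjusted p in limma from 0.529 to 0.971. miR-3070-3p was detected on 2 codonopsis arrays. miR-1188-3p was detected on 1 codonopsis array and 1 control array, with a level of −1.59 on control 1 and of at most −6.01 on the other 8.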

How the data were processed

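Lung RNA of 9 mice was labelled with Cy3 and hybridised to Agilent mouse miRNA arrays, per the labels. The authors deposited scanner files of linear intensity from Agilent Feature Extraction (11.5.1.1 per the file headers, 10.10 per the submitters' processing notes). The deposited processed intensity is background-corrected and not scaled between arrays. The deposited log2 table, with 0.000001 for undetected miRNAs, served as an alternative over the 289 miRNAs detected on all arrays, 3 of them members.

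Processed intensity was averaged over the unflagged spots of each probe, and probe means were averaged per miRNA. Scaled signals were floored at 0.00391 and log2 transformed. The 404 miRNAs were fitted with limma 3.58.1 (R 4.3.3) over all 9 arrays, two-sided, with 6 residual degrees of freedom, Benjamini-Hochberg adjustment and a threshold of 0.05. The fit was tested on simulated data. P-values set a group difference against the spread between mice within groups, with a precision limited by the number of mice. In comparisons with control they cannot tell group from slide. The members and lists were chosen with earlier results of these data known. Members on the array were all accounted for, those tested were named with every value, and the second list of the locus was named where detected. The alternatives were other background corrections, probe summaries, spot flags, scalings, filters, sources of values, sex as a covariate, 1 slide alone and each array left out. The normexp correction (offset 50) was planned on mean spot signals and was run on the median spot signals that the files hold. No saturated spot was found among the members. Sequences are from RefSeq tables of GRCm38.p6.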

Additional observations from a re-analysis of the deposited data

How the results depend on the processing

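The count of members past the threshold stayed at 0 in all 3 comparisons under the alternatives that kept all 9 arrays. With 1 array left out it ranged from 0 to 1 in codonopsis minus model and in codonopsis minus control, with 1 only without control 1 (miR-485-3p). In that setting 8.66% and 11.4% of the 404 miRNAs passed in these comparisons. miR-485-3p had entered the test only through its detection on all codonopsis arrays, so its passes are a description. The count of detected members was 6 under the rule on spots well above background, and 16 from the deposited table. Of 559 differences of single members under an alternative, 60 had the opposite sign and 2 passed, both of miR-485-3p without control 1. The cause of the changes of sign was not tested.

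In model minus control, the percentile over all miRNAs gave 0.32 for miR-127-3p, 0.49 for miR-154-5p, 0.53 for miR-300-3p and 0.37 for miR-494-3p. Quantile normalization gave 0.32 for miR-127-3p, 0.55 for miR-154-5p, 0.63 for miR-300-3p and 0.0079 for miR-434-3p, and the deposited values gave 0.26 for miR-127-3p and 0.096 for miR-434-3p. The total gene signal gave 0.45 for miR-154-5p, 0.72 for miR-300-3p and −0.039 for miR-377-3p. Normexp gave −0.037 for miR-376c-3p, −0.051 for miR-377-3p and −0.039 for miR-379-5p, the brightest probe −0.14 for miR-377-3p and −0.028 for miR-379-5p, and sex as a covariate 0.0053 for miR-300-3p.

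In codonopsis minus model, miR-127-3p was −0.059 with normexp, −0.014 with the total gene signal, −0.34 with the percentile over all miRNAs, −0.28 with quantile normalization, −0.44 in the deposited table and −0.044 with sex. The brightest probe gave 0.12 for miR-329-3p and 0.076 for miR-434-3p, and sex as a covariate −1.05 for miR-376c-3p and −0.81 for miR-485-3p.

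In codonopsis minus control, quantile normalization gave 0.044 for miR-127-3p, 0.073 for miR-154-5p, 0.12 for miR-300-3p and 0.16 for miR-379-5p. The total gene signal gave 0.22 for miR-154-5p, 0.52 for miR-300-3p, 0.61 for miR-379-5p and 0.32 for miR-485-3p, and the percentile over all miRNAs 0.013 for miR-300-3p and 0.035 for miR-379-5p.

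With each array left out in turn, model minus control ranged from −0.17 to 0.092 for miR-154-5p, −0.15 to 0.078 for miR-300-3p, −0.97 to 0.049 for miR-329-3p, −1.02 to 1.29 for miR-376c-3p, −0.14 to 0.38 for miR-377-3p and −2.09 to 0.30 for miR-485-3p. Codonopsis minus model ranged from −0.094 to 0.22 for miR-127-3p, −0.29 to 0.0039 for miR-300-3p, −0.22 to 0.049 for miR-329-3p and −0.16 to 0.085 for miR-434-3p. Codonopsis minus control ranged from −0.12 to 2.70 for miR-376c-3p, −0.37 to 0.034 for miR-379-5p, −1.21 to 1.18 for miR-485-3p and −0.049 to 0.34 for miR-494-3p. No paired analysis was possible because the numbers in the labels do not mark mice shared between groups. Signals of most members close to background limit what their differences can show.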
